A study of Sorghum bicolor with 4 samples.

Results

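Messenger RNA levels of 3 flavonoid pathway genes were followed through the development of the middle stem internode in sweet sorghum (Sorghum bicolor), variety SSV84, raised in an open field. The genes were chalcone synthase (CHS, Sobic.005G136200), chalcone isomerase (CHI, Sobic.001G035600, known as Bmr30) and a dihydroflavonol/flavanone 4-reductase (DFR3, Sobic.004G050200), 3 of the 34129 distinct gene IDs in the deposited table. Their rows are those whose list of IDs holds one of these 3 IDs, a rule that uses no expression value, although the genes were proposed with earlier results of these data known. Each ID was found in 1 row, none of the 3 rows was merged with another gene, and no other row overlapped their loci. The enzyme names belong to the choice of these IDs, because the deposited table gives IDs without descriptions.

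The groups were booting (2 libraries), the milky stage (1 library) and physiological maturity (1 library), all of the same variety, tissue and field, with no treatment in the labels. Expression is given as FPKM (fragment counts normalised to transcript length and to each library's mapped fragments), 1 authors' value for each stage. The sources used here do not say how many libraries went into it. No spread between plants or libraries can therefore be stated, no p-value was computed, and each difference below compares 1 value with another.

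Flavonoids branch off the phenylpropanoid pathway, which also feeds lignin. Chalcone synthase takes the first committed step, joining a coumaroyl-CoA starter with malonyl-CoA units into naringenin chalcone, and chalcone isomerase closes that chalcone into the flavanone naringenin. From flavanones, grasses make flavones such as tricin, which is built into the lignin of their cell walls, and the brown midrib mutant bmr30 of sorghum carries a lesion in the chalcone isomerase gene. Dihydroflavonol 4-reductases reduce dihydroflavonols towards anthocyanins and tannins, and in sorghum the reduction of flavanones leads to flavan-4-ols and the deoxyanthocyanidin pigments that the plant makes as phytoalexins.

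The 3 genes took 3 different courses. CHS was at its highest at booting and fell at both steps, the first time only just, CHI was level until the milky stage and fell by maturity, and DFR3, hardly detected at booting, was at its highest at maturity. A row is said to have risen or fallen where 2 stages lay 1 or more apart in log2(FPKM + 1), which is at least a doubling or halving of FPKM + 1. That rule was read over the 18505 of 34458 rows that reached 1 FPKM in any stage, called expressed rows here. A difference of that size in either direction was found in 10.7% of expressed rows for the milky stage against booting, 14.3% for maturity against booting and 9.25% for maturity against the milky stage. Among the 3 genes, 1 of 3 passed it in the first of these comparisons and 3 of 3 in each of the others, which share the maturity value. This tally depends on the added 1 FPKM: with 5 FPKM added it was 0 of 3 for the milky stage against booting, 2 of 3 for maturity against booting and 1 of 3 for maturity against the milky stage. In bulk tissue of this kind, fewer cells of a type and less RNA per cell cannot be told apart. DFR3 entered the expressed rows through its maturity value alone, CHS through booting and the milky stage, and CHI through all stages. The value that let DFR3 in is also the one that gives its rises, so its part in the 3 of 3 is no independent support.

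**Figure D1:**
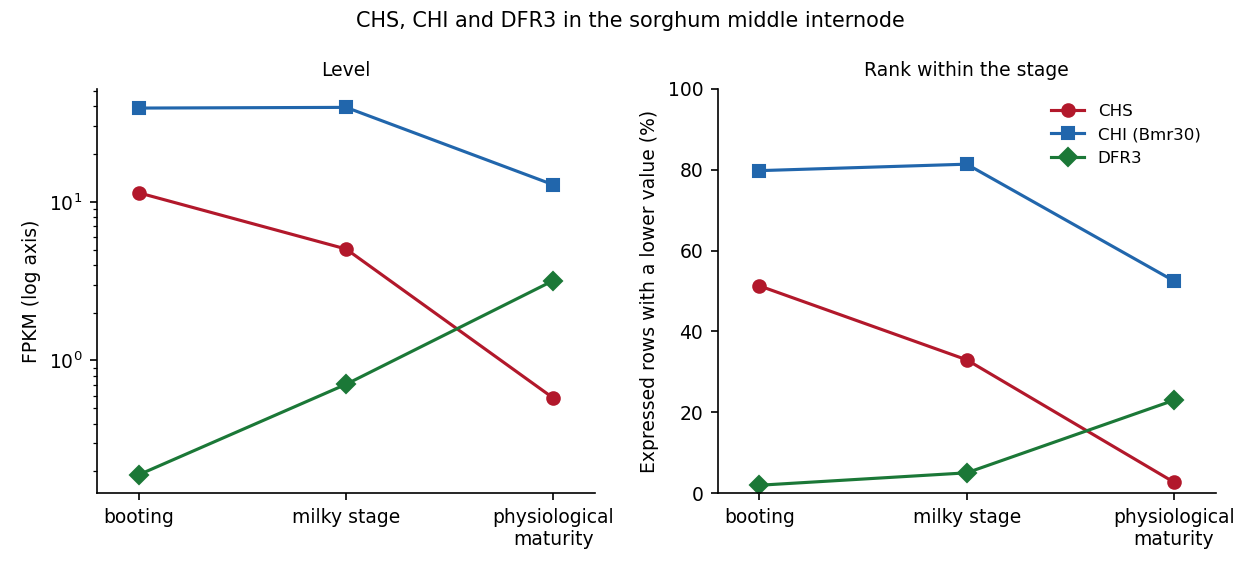
FPKM on a log axis (left) and the percentage of the 18505 expressed rows with a lower value in the same stage (right) for CHS, CHI and DFR3 at booting, the milky stage and physiological maturity; each point is the authors' single value for the stage. CHI stays above the others throughout, and DFR3 passes CHS between the milky stage and maturity.

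CHS lies on chromosome 5 from 58859094 to 58862916. It stood at 11.4 FPKM at booting, 5.04 FPKM at the milky stage and 0.578 FPKM at maturity. The gene thus lost ground at each step and ended below 1 FPKM. In rank, it had more FPKM than 51.3% of expressed rows at booting, 33.0% in the milky stage and 2.70% at maturity.

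The milky stage value of CHS was 0.444 times that at booting, a difference in log2(FPKM + 1) of −1.03. This is only just past the limit for a fall, and 5.90% of expressed rows fell in that comparison. With every stage rescaled to the same summed FPKM, the difference was −0.85 and no longer counted as a fall, and with 5 FPKM added in place of 1 it was −0.70, also short of the limit. The summed FPKM of all rows was 688481 at the milky stage and 793091 at booting, and the call for this gene's first step depends on that scaling and on the pseudocount. It was kept, again only just, at −1.03 with stages rescaled by the median of ratios and at −1.06 with quantile normalization. With 0.1 FPKM added the difference was −1.16, and with none added −1.17. From the milky stage to maturity CHS fell by 1.94 on the log2 scale, a step in which 3.63% of expressed rows fell. A fall of that size or more was seen in 137 other rows. With 5 FPKM added the difference of this step was −0.85, and the call was lost.

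Over the whole span, CHS had 0.578 FPKM at maturity against 11.4 FPKM at booting, a log2 difference of −2.97. Falls were counted in 6.19% of expressed rows in this comparison, and 52 other rows fell as far or further. In plain FPKM the maturity value was 0.0509 times the booting value. Of the 10.8 FPKM lost in all, 58.6% was lost by the milky stage. For scale, 9593 rows had at least 10 FPKM at booting, and 28 of them, CHS included, were under 1 FPKM at maturity. Those limits of 10 and 1 FPKM were chosen after the values of CHS were seen.

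CHI lies on chromosome 1 from 2674767 to 2676463 and was the most abundant of the 3 transcripts in every stage. It had 39.0 FPKM at booting, 39.4 FPKM at the milky stage and 12.8 FPKM at maturity. The first 2 values were nearly the same and the last was far lower. Its rank was above 79.8% of expressed rows at booting and above 81.4% at the milky stage, against 52.5% at maturity.

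Between the milky stage and booting, the log2(FPKM + 1) difference of CHI was 0.01, beside a median of −0.01 over all expressed rows. It was 0.21 after rescaling to equal summed FPKM, still far from the limit. With no replicate spread to set it against, that value does not show that the level was equal. CHI then fell by 1.55 on the log2 scale from the milky stage to maturity, further than all but 250 other expressed rows. Against booting, maturity gave −1.54, and 467 other rows fell as far or further. Since both comparisons use the same maturity value, and the booting and milky stage values were close, the 2 falls are not separate evidence. In plain FPKM, the maturity value was 0.324 times the milky stage value and 0.327 times the booting value.

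DFR3 lies on chromosome 4 from 4051666 to 4053206. Its values were 0.190 FPKM at booting, 0.707 FPKM at the milky stage and 3.19 FPKM at maturity. Only the last passed 1 FPKM, so this was a weakly detected transcript, higher at each later stage. It ranked above 1.96% of expressed rows at booting, 5.03% in the milky stage and 23.0% at maturity.

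The step from booting to the milky stage gave DFR3 a log2(FPKM + 1) difference of 0.52, which did not count as a rise, where 4.83% of expressed rows rose. The ratio of the plain values was 3.72, and the added 1 FPKM hides most of it, because both values lay below 1 FPKM. From the milky stage to maturity DFR3 rose by 1.30 on the log2 scale, a step in which 5.62% of expressed rows rose and 621 other rows rose as far or further. Across the whole span the difference was 1.82, against a background of 8.10% of rows that rose and 444 others that rose as far or further. With 5 FPKM added both calls were lost, at 0.52 for maturity against the milky stage and 0.66 for maturity against booting. The maturity value was 16.8 times the booting value in plain FPKM. Of the net gain of 3.00 FPKM, 82.8% came after the milky stage. Of the 17587 rows of the table under 1 FPKM at booting, 284 (1.61%), DFR3 included, had at least 3 FPKM at maturity. Most of those 17587 rows reached 1 FPKM in no stage and could not cross. Of the 18505 expressed rows, 16871 had at least 1 FPKM at booting, so the 284 come from the small remainder. The share among expressed rows under 1 FPKM at booting is therefore far higher than 1.61%, which is no measure of how rare the course of DFR3 was. These limits, too, were chosen after the gene's values were seen.

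**Figure D2:**
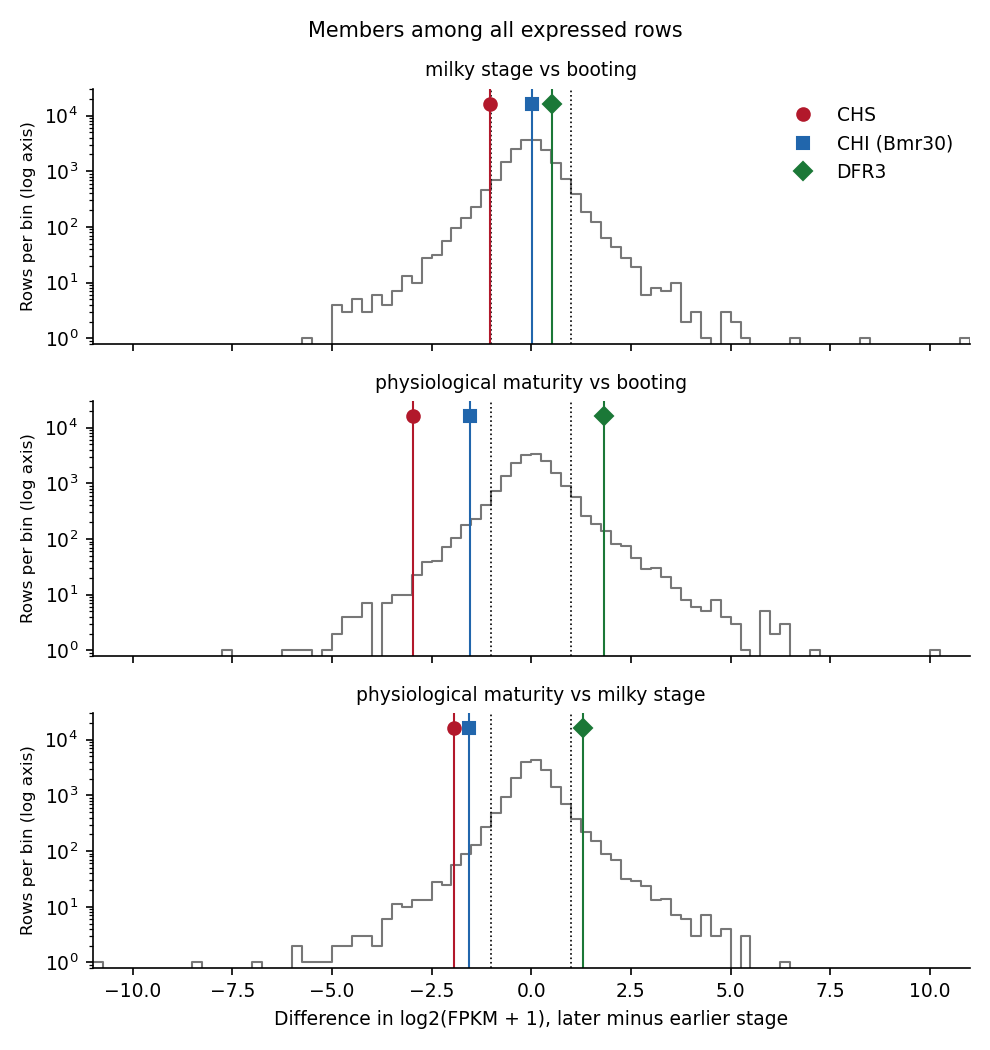
Number of expressed rows (log axis) by their difference in log2(FPKM + 1), later minus earlier stage, in bins of 0.25, for each comparison; coloured lines and symbols mark CHS, CHI and DFR3, and dotted lines mark a difference of 1 in either direction. CHS lies at −1.03, −2.97 and −1.94 from the top panel down, CHI at 0.01, −1.54 and −1.55, and DFR3 at 0.52, 1.82 and 1.30.

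Set side by side, CHS and CHI fell and DFR3 rose in both comparisons that involve maturity, while between the milky stage and booting CHS alone passed the limit. Over all expressed rows there were 1499 rises and 1146 falls for maturity against booting and 1040 rises and 672 falls for maturity against the milky stage. For the milky stage against booting there were 894 rises and 1092 falls. After rescaling to equal summed FPKM these became 2021 rises and 832 falls for maturity against booting, and 1278 rises and 743 falls for the milky stage against booting. That rescaling put the median of all expressed rows at 0.23 for maturity against booting and at 0.16 for the milky stage against booting, where it had been 0.04 and −0.01. Under it the maturity against booting differences were −2.81 for CHS, −1.33 for CHI and 1.90 for DFR3. The summed FPKM was 793091 at booting and 682654 at maturity. Sums that close could not turn differences of this size, so the kept directions are no check.

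Because FPKM is scaled by length, levels can also be compared between the genes within a stage. The order in both earlier stages was CHI, CHS and DFR3, from high to low. At maturity it was CHI, DFR3 and CHS. The FPKM of CHI was 3.44 times that of CHS at booting, 7.82 times in the milky stage and 22.1 times at maturity, so the synthase lost ground to the isomerase at each step. The FPKM of DFR3 was 0.0167 times that of CHS at booting, 0.140 times in the milky stage and 5.52 times at maturity. Between CHI and DFR3 the ratio narrowed, with CHI at 206 times the FPKM of DFR3 at booting, 55.7 times in the milky stage and 4.0 times at maturity. In the 2 earlier stages the ratios with DFR3 rest on its values of 0.190 and 0.707 FPKM. Both are under 1 FPKM, so the size of those ratios is uncertain. Whether neighbours in these orders differ by more than the spread between plants is not known from single values. Such ratios do not change when a whole stage is rescaled, since both genes of a pair are multiplied by the same factor.

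Added up, the 3 genes held 50.6 FPKM at booting, 45.2 FPKM at the milky stage and 16.5 FPKM at maturity. CHI made up 77.2% of that sum at booting, 87.3% in the milky stage and 77.2% at maturity. CHS had 22.4% at booting, 11.2% in the milky stage and 3.49% at maturity. DFR3 had 0.375% at booting, 1.57% in the milky stage and 19.3% at maturity. These are shares of a falling sum. From booting to maturity DFR3 gained 3.00 FPKM, while CHS lost 10.8 FPKM and CHI lost 26.3 FPKM.

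The surroundings of the 3 genes on their chromosomes differed. CHS stood in a stretch of rows at or near 0. Of the 20 rows around it, 10 on either side, 9 were listed at 0 in all stages and 1 was an expressed row, Sobic.005G136900, 54987 bp away, with 1.50 FPKM at booting, 0.384 FPKM at the milky stage and 1.09 FPKM at maturity. The nearest row, Sobic.005G136300, began 16974 bp beyond CHS and had 0.581 FPKM at booting, 0.0210 FPKM at the milky stage and 0.134 FPKM at maturity. Over both sides 11 rows were above 0, of which 8 were highest at booting, as CHS was, 2 at the milky stage and 1 at maturity. On the side of Sobic.005G136300 alone, 6 of the 7 rows above 0 were highest at booting. All but Sobic.005G136900 were under 1 FPKM in every stage. Among all expressed rows 35.7% were highest at booting, but that set leaves out all but 1 of these 7 rows. No such share was computed for rows under 1 FPKM. Unlike CHS, the 6 rows highest at booting on that side were all lowest at the milky stage and higher again at maturity. Chalcone synthases form families of similar copies in grasses, and how the authors' counting shared fragments among similar copies is not stated in the sources used here. Its part in the CHS values was not tested, and none of the neighbouring IDs has a description in the files used here.

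CHI lay among active genes. Of its 20 neighbouring rows, 16 were expressed rows. None of these rose or fell between maturity and booting, where CHI had a difference of −1.54. Between the milky stage and booting 1 of them rose and 1 fell, and between maturity and the milky stage 1 fell. The row that fell at that last step, Sobic.001G034900, was the one that had risen before it, with 18.5 FPKM at booting, 82.6 FPKM at the milky stage and 10.5 FPKM at maturity, a peak that CHI did not show. The row closest to CHI, Sobic.001G035500 at 1930 bp, had 121 FPKM at booting, 106 FPKM at the milky stage and 112 FPKM at maturity, and so stayed high where CHI fell.

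DFR3 had 10 expressed rows among its 20 neighbours. The closest, Sobic.004G050300 at 1249 bp, was steady, with 18.0 FPKM at booting, 17.5 FPKM at the milky stage and 17.3 FPKM at maturity. For maturity against booting 1 of the 10 rose and none fell. It was Sobic.004G051100, 55319 bp away, with 1.56 FPKM at booting, 3.51 FPKM at the milky stage and 17.4 FPKM at maturity, a course like that of DFR3 at a higher level. Between maturity and the milky stage 2 of the 10 rose and 1 fell. A merged row 5721 bp on the other side, holding Sobic.004G049900, Sobic.004G050000 and Sobic.004G050100, was far more abundant, with 1705 FPKM at booting, 737 FPKM at the milky stage and 1081 FPKM at maturity. It was lowest at the milky stage, a course that DFR3 did not follow. An unannotated row with the same coordinates was counted apart from it among the 10. Between the milky stage and booting these were the 2 of the 10 that fell, at 1 locus, and none rose.

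**Figure D3:**
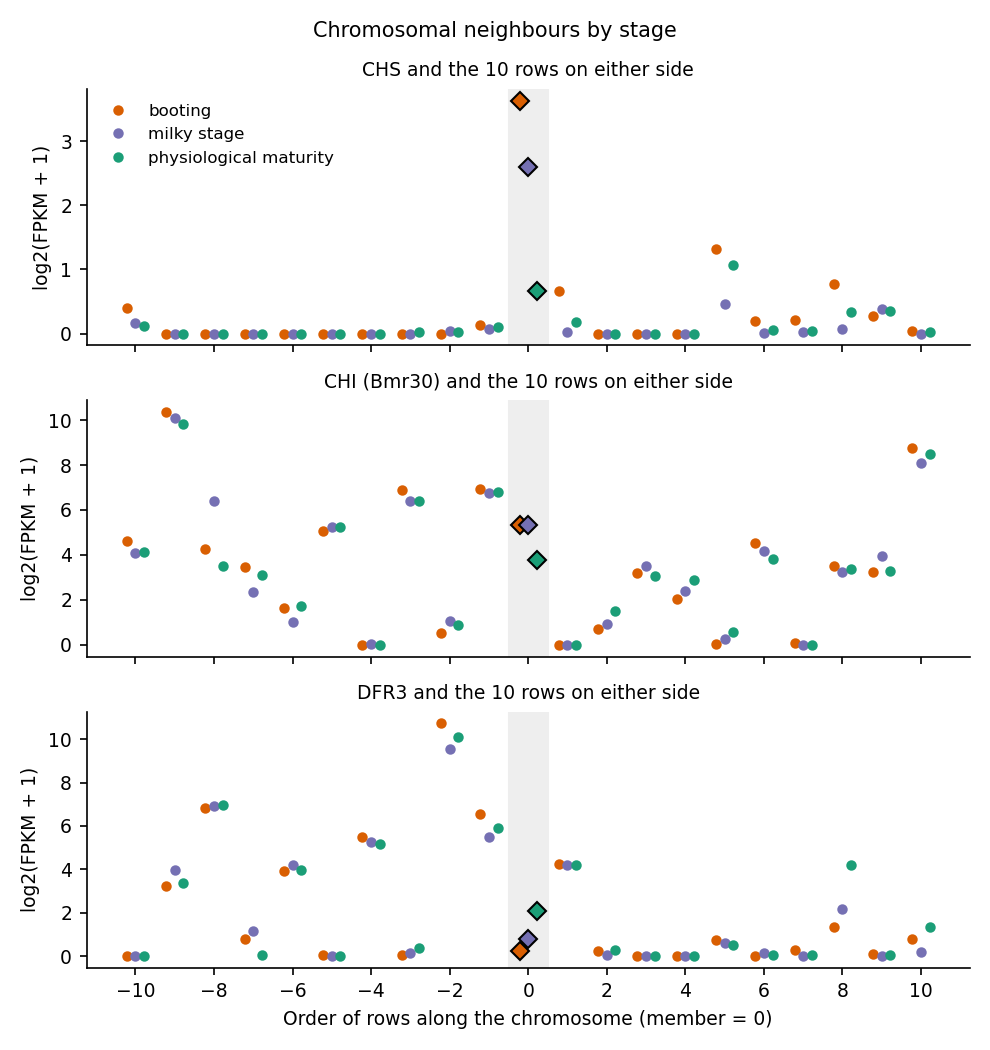
log2(FPKM + 1) at booting, the milky stage and physiological maturity for CHS (top), CHI (middle) and DFR3 (bottom), drawn as diamonds on grey, and for the 10 rows on either side in chromosomal order, drawn as dots. Rows around CHS lie near 0 apart from a few at higher coordinates, while CHI and DFR3 have several rows with high values around them.

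The genes closest in expression to each of the 3 were found by the Euclidean distance between their log2(FPKM + 1) values over the 3 stages, among 16333 other expressed rows with a single ID. This measure takes in both level and course, and with 3 points it is a description only. For CHS the nearest were Sobic.003G310200, at a distance of 0.388, Sobic.007G223600 at 0.631 and Sobic.K043700 at 0.665. Sobic.003G310200 had 12.3 FPKM at booting, 6.28 FPKM at the milky stage and 0.890 FPKM at maturity. It was also the only row within a distance of 0.5. How many rows lie that near to a typical expressed row was not computed, so this count does not set CHS apart.

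CHI had 5 rows within 0.5. The nearest were Sobic.009G181800 at 0.308, Sobic.006G211701 at 0.326 and Sobic.009G255500 at 0.360. Of these, Sobic.006G211701 was the one that was higher at the milky stage than at booting, as CHI was by a small margin, with 33.8 FPKM at booting, 45.3 FPKM at the milky stage and 11.3 FPKM at maturity.

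DFR3 had 53 rows within 0.5, in a range of low values where the added 1 FPKM draws rows together. The nearest were Sobic.003G121400 at 0.147, Sobic.009G022600 at 0.211 and Sobic.001G489000 at 0.223. Sobic.003G121400 had 0.311 FPKM at booting, 0.757 FPKM at the milky stage and 3.24 FPKM at maturity, close to DFR3 in every stage.

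**Figure D4:**
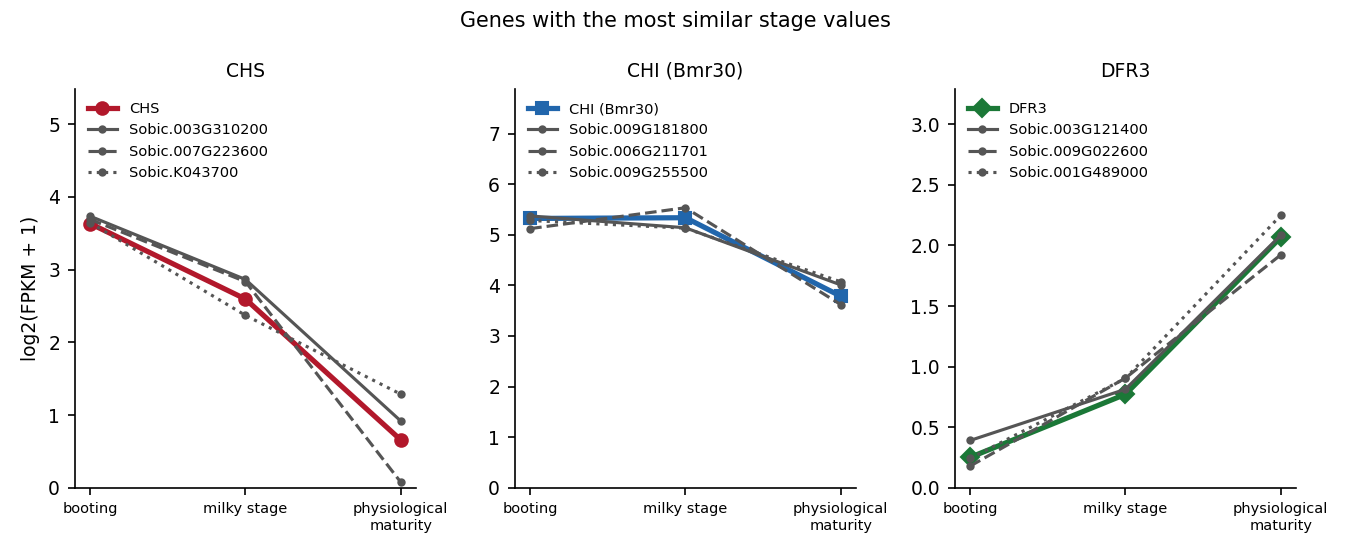
log2(FPKM + 1) by stage for CHS, CHI and DFR3 (thick coloured lines, 1 panel each with its own vertical scale) and for the 3 single-ID rows nearest to each (grey lines). The neighbours of DFR3 lie within 0.223 of it, those of CHI within 0.360 and those of CHS within 0.665.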

How the data were processed

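Total RNA of the middle internode was sequenced after a stranded total RNA library kit, per the labels' protocols. The submitters' processing notes name HISAT2 2.0.5, Bowtie2 2.2.9, cutadapt 1.8.1 and Cuffdiff, without their roles. Neither genome build nor library depth is given in the sources used here, and coordinates are printed as the table has them. The authors deposited FPKM, per the file headers, with 1 column per stage and no column for a single library.

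From these values log2(FPKM + 1) differences were computed, later minus earlier stage, with Python 3.11.15, numpy 2.4.6, pandas 2.3.3 and matplotlib 3.10.9. Rows that reached 1 FPKM in any stage were kept, and those with a difference of 1 or more were called. The calling step was first run on noise-free copies of the booting values, with known folds put into 200 rows that were not low. The outcome follows from the rule itself, so this checks only that the rule was computed as stated. It does not show how calls behave under noise or at low values. Genes named were the 3 members, the 3 nearest to each in stage values, and chromosomal neighbours; the window of 10 rows on either side, and which of them to name, were chosen after values were seen. The members and lists were chosen with earlier results of these data known.

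Lists of other flavonoid, phenylpropanoid and tissue marker genes were to be found by RefSeq description. The RefSeq gene table used (assembly Sorghum_bicolor_NCBIv3) holds symbols without descriptions. Of 34129 IDs, 0 matched it, as written or with the ID rewritten as a SORBI locus tag, so these lists, and a check of the tissue by its markers, are not reported here. No sequence of the 3 genes was used here. The alternatives were other pseudocounts, filters, thresholds and scalings.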

Additional observations from a re-analysis of the deposited data

How the results depend on the processing

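The 9 differences of the 3 genes kept their direction in all 54 alternative values, and 47 of these stayed on the same side of the limit of 1. The added 1 FPKM mattered most. With 5 FPKM added, 4 differences no longer reached the limit: CHS had −0.70 for the milky stage against booting and −0.85 for maturity against the milky stage, and DFR3 had 0.66 for maturity against booting and 0.52 for maturity against the milky stage. With 0.1 FPKM added, DFR3 had 1.48 for the milky stage against booting, and with none added 1.90, both past the limit. A pseudocount cannot turn a direction, so those settings are no check of it. Nor could the rescaling to equal summed FPKM turn differences as large as those of maturity against booting. Rescaling to equal summed FPKM gave CHS −0.85 for the milky stage against booting. The settings with no pseudocount, equal summed FPKM and single-ID rows were chosen after seeing the data.

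Counts of changed rows were 1986 for the milky stage against booting, 2645 for maturity against booting and 1712 for maturity against the milky stage. In that order they became 847, 1167 and 668 with 5 FPKM added, 1265, 1529 and 955 at a mean of at least 5 FPKM, and 308, 567 and 341 at a difference of at least 2. With 0.1 FPKM added, they became 3182 for the milky stage against booting, 3853 for maturity against booting and 2722 for maturity against the milky stage. These moves follow from the weight of low values, the rows that enter and the size required.

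No paired analysis was possible because there was 1 value for every stage. Summing all chalcone synthase rows and counting listed flavonoid genes were not run, since no row but the 3 members had a description.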
